A study of Homo sapiens with 6 samples.

Results

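The genes described here are 35 genes of cholesterol and fatty acid synthesis, taken by symbol from the 24305 gene symbols of the deposited tables. All 35 were found, and all 35 passed the filter on low counts. They comprise 19 sterol enzymes, from acetoacetyl-CoA to cholesterol with the branch to geranylgeranyl diphosphate, 8 fatty acid enzymes, and 8 regulators and transporters of the same lipids. RNA came from DU 145, an established human prostate cancer cell line, in 3 libraries treated with talazoparib, an inhibitor of PARP1 and PARP2, for 48 h and in 3 control libraries also labelled 48 h. The control is labelled "DMOS", which is read here as DMSO, a solvent. The labels of the libraries give no dose, name no genetic change beyond the line itself and do not say how the replicates arose. With no word of separate cultures, each p-value reflects only library-to-library spread, possibly of technical origin. In bulk RNA, fewer cells of a kind and less RNA per cell cannot be told apart.

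Cells make cholesterol from acetyl-CoA through mevalonate, the isoprenoid diphosphates, squalene and lanosterol, and they make fatty acids from the same acetyl-CoA through malonyl-CoA. Both routes are under the control of the SREBP transcription factors: SREBP-2, encoded by SREBF2, acts mainly on sterol genes, and SREBP-1, encoded by SREBF1, mainly on fatty acid genes. When sterols are low, SCAP escorts the SREBP precursors from the endoplasmic reticulum to the Golgi, where proteases release the active factor, and when sterols are high, INSIG proteins hold SCAP back. Prostate cancer cells are known for active lipid synthesis.

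Total counts were 39123997 to 39585727 per library. The epithelial keratins KRT8 and KRT18 stood at 265 to 401 FPKM in every library, while EPCAM was at 2.87 to 4.23 FPKM and CDH1 at 0.12 to 0.36 FPKM. As deposited, KRT8 (log2 fold change -0.07) and KRT18 (0.13) did not pass the test. Trend-removed, as explained below, both were called lower (-0.37 and -0.33) and their groups did not overlap. EPCAM and CDH1 passed neither as deposited nor trend-removed. The keratin KRT19 was at 59.7 to 69.0 FPKM with talazoparib, against 29.2 to 33.6 FPKM in control (log2 fold change 1.13, adjusted p = 9.02e-06; trend-removed 0.56), and its part in the results below was not tested. The leukocyte genes PTPRC and CD3E and the fibroblast genes COL1A2 and DCN had 0 counts in all 6 libraries, while the fibroblast gene COL1A1 was at 0.350 to 0.498 FPKM with talazoparib and 0.417 to 0.457 FPKM in control. The third leukocyte gene listed, CD68, which encodes a lysosomal protein that is not confined to leukocytes, was at 36.2 to 39.6 FPKM with talazoparib, against 14.7 to 16.2 FPKM in control, and its part in the results below was not tested. Across all genes the talazoparib libraries differed from control along the GC content of the transcript. In the GC-poorest decile of genes, the median deviation from the gene's mean log2 CPM was -0.34, -0.68 and -0.10 in talazoparib replicates 1, 2 and 3, against 0.23, 0.51 and 0.39 in control replicates 1, 2 and 3. In the GC-richest decile it was 0.20, 0.29 and 0.16 with talazoparib, against -0.10, -0.29 and -0.25 in control. For this reason each log2 fold change below is followed, where it matters, by the value after each library's trend over GC content and length was removed, called trend-removed. Removing the trend also removes any response to the drug that follows GC content or length, and that cannot be told apart from the trend here.

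With talazoparib, 12 of the 35 genes rose, 11 fell and 12 did not pass the test. Over all 14452 genes tested, 56.7% were called, 26.8% as higher and 29.9% as lower, so the share of these genes called, in either direction, was near the background. Their log2 fold changes ran from -1.19 to 0.59 with a median of -0.08, and the median over all genes tested was 0.00. For 25 of the 35, the CPM of the groups did not overlap, against 64.4% of all genes tested. Falls of at least 2-fold that passed the test were seen in HMGCS1, SC5D and STARD4, where 9.75% of all genes fell that far, and no member rose 2-fold, where 2.75% of all genes did. After trend removal 7 were higher, 10 lower and 18 not past the test, against 44.2% called among 13717 genes, 22.0% higher and 22.2% lower. HMGCS1, GGPS1, SQLE and SC5D of the sterol route, the desaturase SCD and the sterol sensor INSIG1 were lower in both fits, and ACLY was higher in both.

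**Figure D1:**
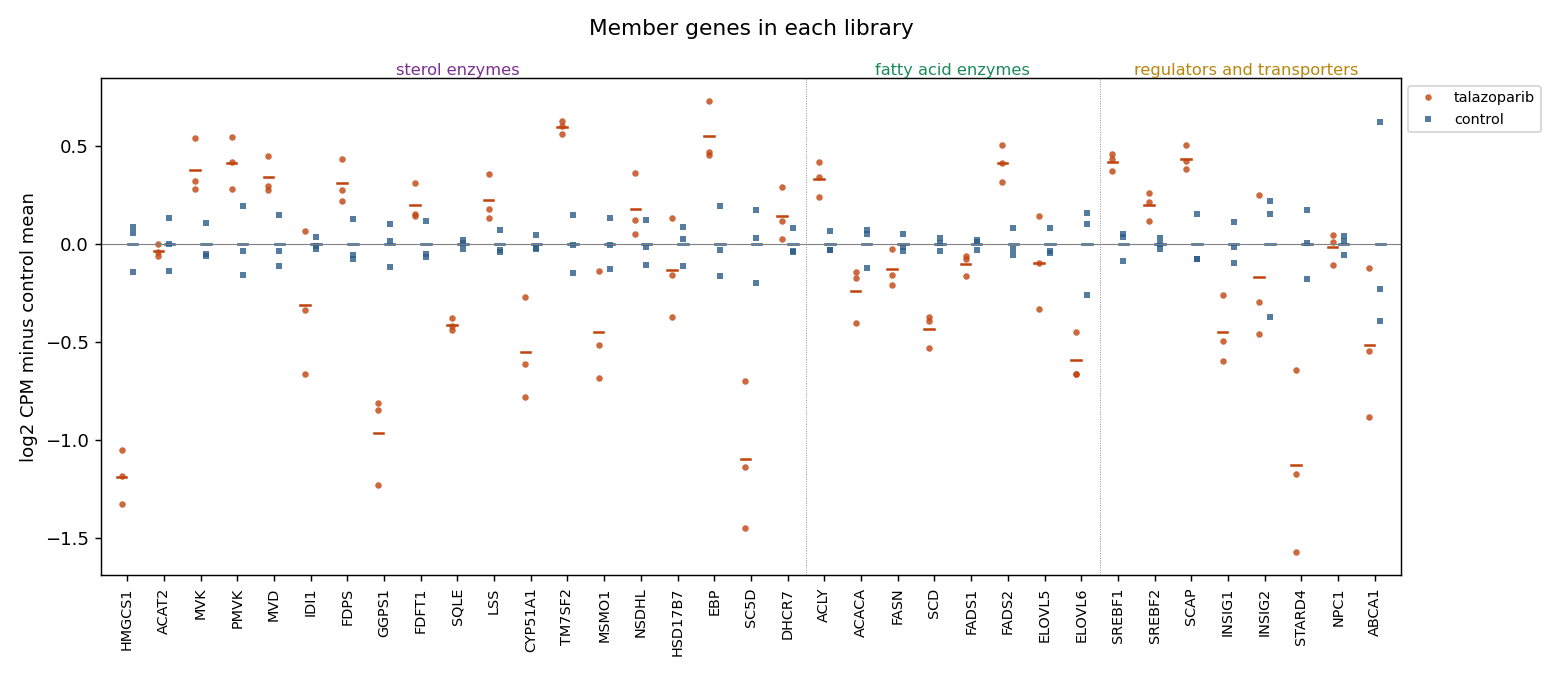
Each point is the log2 CPM of one library minus the mean log2 CPM of the 3 control libraries, for the 35 genes on the horizontal axis grouped by role. Circles are talazoparib and squares control libraries, with short lines for group means; HMGCS1, SC5D, GGPS1 and STARD4 lie lowest with talazoparib, and TM7SF2 and EBP highest.

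The sterol enzymes went both ways. Of 19, 7 rose (MVK, PMVK, MVD, FDPS, LSS, TM7SF2 and EBP), 6 fell (HMGCS1, GGPS1, SQLE, CYP51A1, MSMO1 and SC5D) and 6 did not pass (ACAT2, IDI1, FDFT1, NSDHL, HSD17B7 and DHCR7), with a median log2 fold change of 0.15. Of the 8 fatty acid enzymes 2 rose (ACLY and FADS2), 3 fell (ACACA, SCD and ELOVL6) and 3 did not pass (FASN, FADS1 and ELOVL5), with a median of -0.11. Trend-removed, the order of the medians turned round, to -0.08 for the sterol enzymes and 0.08 for the fatty acid enzymes, with 2 higher and 7 lower of the sterol enzymes and 3 higher and 2 lower of the fatty acid enzymes. No direction that separates the sterol from the fatty acid enzymes was therefore shared by both fits.

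HMGCS1, the cytosolic synthase that makes HMG-CoA at the entry to the mevalonate pathway, showed the largest fall. It was at 73.9, 67.1 and 81.1 CPM in talazoparib replicates 1, 2 and 3, against 152, 175 and 178 CPM in control replicates 1, 2 and 3. Every talazoparib library was thus far below the lowest control library, and the log2 fold change was -1.19 ± 0.09 (SE, n = 3 each; adjusted p = 5.67e-06). Trend-removed it was -0.45 ± 0.05 (adjusted p = 5.32e-05), and the groups still did not overlap, at 103 to 110 CPM with talazoparib and 137 to 148 CPM in control. The gene lies on the minus strand of chromosome 5 from 43289395 to 43313512 (GRCh38, GENCODE 29), and its transcript has 40.2% GC.

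SC5D, the desaturase that introduces a double bond into the sterol ring late in the pathway, stood at 18.8, 15.1 and 25.5 CPM with talazoparib, against 36.0, 46.6 and 42.2 CPM in control. The fall was -1.07 ± 0.17 on the log2 scale (SE; adjusted p = 0.000302), and the talazoparib libraries differed among themselves by more than the control libraries did in proportion. Trend-removed, the 3 talazoparib libraries came to 26.7, 26.4 and 32.4 CPM, against 34.2, 35.2 and 34.0 CPM in control, with a log2 fold change of -0.27 ± 0.08 (adjusted p = 0.0207). The gene is on chromosome 11 from 121292453 to 121308694.

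GGPS1 makes geranylgeranyl diphosphate, the lipid attached to many small GTPases, and so leads away from cholesterol. Its libraries read 8.33, 6.38 and 8.54 CPM with talazoparib and 13.8, 15.1 and 16.1 CPM in control, without overlap (log2 fold change -0.95 ± 0.14, SE; adjusted p = 0.000175; trend-removed -0.35 ± 0.10, adjusted p = 0.0134). In GENCODE 29 the exons of GGPS1 share 1422 bases with TBCE on the same strand and 138 bases with ARID4B on the other, so its counts are uncertain. TBCE and ARID4B had log2 fold changes of -0.30 and -1.27, and of 0.33 and -0.48 trend-removed. How reads over shared exons were assigned is not given in the sources used here.

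CYP51A1, the lanosterol demethylase, was at 151, 135 and 192 CPM with talazoparib, against 228, 238 and 227 CPM in control. Talazoparib replicate 3 was closest to control, and all 3 lay below it (-0.54 ± 0.11, SE; adjusted p = 0.00169). Trend-removed the value was -0.06 (adjusted p = 0.483) and the groups overlapped. SQLE, the squalene epoxidase and a flux-controlling step, differed least between replicates of the genes that fell. It read 163, 160 and 167 CPM with talazoparib, against 213, 218 and 220 CPM in control (-0.41 ± 0.07, SE; adjusted p = 0.000315), and it stayed lower trend-removed (-0.25 ± 0.04; adjusted p = 0.000463). MSMO1, a methyl oxidase that acts after CYP51A1, fell by 0.43 on the log2 scale (adjusted p = 0.0152). Its value no longer passed when talazoparib replicate 1 or control replicate 2 was left out (-0.39 each), nor trend-removed (0.09).

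TM7SF2, a sterol reductase, rose most among the sterol enzymes. Its libraries were at 82.1, 83.3 and 79.7 CPM with talazoparib, against 59.9, 48.8 and 53.9 CPM in control, a log2 fold change of 0.59 ± 0.09 (SE; adjusted p = 0.000157). Its transcript has 62.0% GC, and trend-removed the libraries overlapped, at 72.2 to 76.3 CPM with talazoparib and 69.6 to 74.2 CPM in control (0.05; adjusted p = 0.523). EBP, the isomerase that shifts the ring double bond, was at 157, 191 and 159 CPM with talazoparib, against 132, 103 and 112 CPM in control (0.55 ± 0.10, SE; adjusted p = 0.000892; trend-removed 0.16, adjusted p = 0.0607). All 3 talazoparib libraries were above the highest control library before the trend was removed.

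The kinases and the decarboxylase that turn mevalonate into the isoprenoid unit rose together. PMVK, phosphomevalonate kinase, had 66.3, 72.4 and 60.2 CPM with talazoparib, against 56.6, 44.4 and 48.4 CPM in control (0.41 ± 0.10, SE; adjusted p = 0.00497). MVK, mevalonate kinase, had 57.7, 67.1 and 56.0 CPM with talazoparib, against 49.8, 44.3 and 44.6 CPM in control (0.38 ± 0.09, SE; adjusted p = 0.00421). MVD, the decarboxylase, had a log2 fold change of 0.34 (adjusted p = 0.00562). Trend-removed, MVD was called lower (-0.18; adjusted p = 0.00801), and PMVK (-0.13) and MVK (0.05) did not pass. The exons of MVK share 306 bases with MMAB on the other strand, which itself had a log2 fold change of 0.32.

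Among the other sterol enzymes, FDPS, which makes farnesyl diphosphate, rose by 0.31 on the log2 scale (adjusted p = 0.00715), a call lost without control replicate 3 (0.25). LSS, which closes squalene epoxide to lanosterol, rose by 0.23 (adjusted p = 0.0290), a call lost when any of talazoparib replicates 1 and 2 or control replicates 2 and 3 was left out (0.16 to 0.25). Trend-removed neither passed (-0.08 and -0.04). FDFT1, which makes squalene, had a log2 fold change of 0.20 and just missed the threshold (adjusted p = 0.0504), although its groups did not overlap; trend-removed it was higher (0.27; adjusted p = 0.00728). IDI1, the isomerase between the isoprenoid units, spread from 39.6 to 65.7 CPM among the talazoparib libraries, against 61.5 to 64.3 CPM in control (-0.28; adjusted p = 0.120), and was called higher trend-removed (0.39; adjusted p = 0.0122). ACAT2, the thiolase that makes acetoacetyl-CoA, had a log2 fold change of -0.04 and was called lower trend-removed (-0.21); its exons share bases with TCP1 (397 bases) and SOD2 (1141 bases) on the other strand. DHCR7, the last reductase of one branch, was at 0.15 and was called lower trend-removed (-0.25). NSDHL (0.18) and HSD17B7 (-0.12), which act on the ring after MSMO1, passed in neither fit.

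In the fatty acid route, SCD, the desaturase that makes oleate, was the most abundant member by CPM. It was at 1330.1, 1310.5 and 1192 CPM with talazoparib, against 1682, 1759 and 1728 CPM in control, so the groups were far apart relative to the spread within each (-0.43 ± 0.08, SE; adjusted p = 0.000452). It remained lower trend-removed (-0.21 ± 0.05; adjusted p = 0.00432). SCD lies on chromosome 10 from 100347124 to 100364834, with a transcript of 47.1% GC. ELOVL6, which elongates palmitate, was at 19.7, 17.0 and 17.0 CPM with talazoparib and at 22.5, 28.9 and 30.1 CPM in control (-0.60 ± 0.13, SE; adjusted p = 0.00173), and trend-removed the sign was positive (0.13; adjusted p = 0.295).

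ACLY cleaves citrate to supply acetyl-CoA to both routes, and it was the only member called higher in both fits. It was at 814, 859 and 760 CPM with talazoparib, against 673, 629 and 629 CPM in control (0.33 ± 0.08, SE; adjusted p = 0.00250; trend-removed 0.24 ± 0.05, adjusted p = 0.00148). Its gene runs from 41866908 to 41930542 on the minus strand of chromosome 17. FADS2, a front-end desaturase of polyunsaturated fatty acids, was at 670, 713 and 626 CPM with talazoparib, against 533, 483 and 494 CPM in control (0.41 ± 0.08, SE; adjusted p = 0.000759). Trend-removed the groups overlapped (0.02; adjusted p = 0.698).

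ACACA and FASN, which make malonyl-CoA and build palmitate from it, depended on the fit. ACACA fell by 0.24 on the log2 scale (adjusted p = 0.0357), a call lost when any of talazoparib replicates 1 and 3 or control replicates 2 and 3 was left out (-0.27 to -0.16), and trend-removed it was higher (0.18; adjusted p = 0.0186). FASN had a log2 fold change of -0.13 (adjusted p = 0.165); it was called lower under total count scaling (-0.20) and trend-removed (-0.27; adjusted p = 0.000445), and higher with the length trend alone removed (0.35). FASN has a GC content of 65.3%, below only MVD among the 35 genes, and a deposited length of 8531 nt. FADS1, a desaturase whose gene lies beside FADS2, was at -0.10 in both fits and past the test in neither, although its groups did not overlap. ELOVL5, an elongase of polyunsaturated fatty acids, was at -0.08 (adjusted p = 0.531) and was higher trend-removed (0.41; adjusted p = 0.000215).

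**Figure D2:**
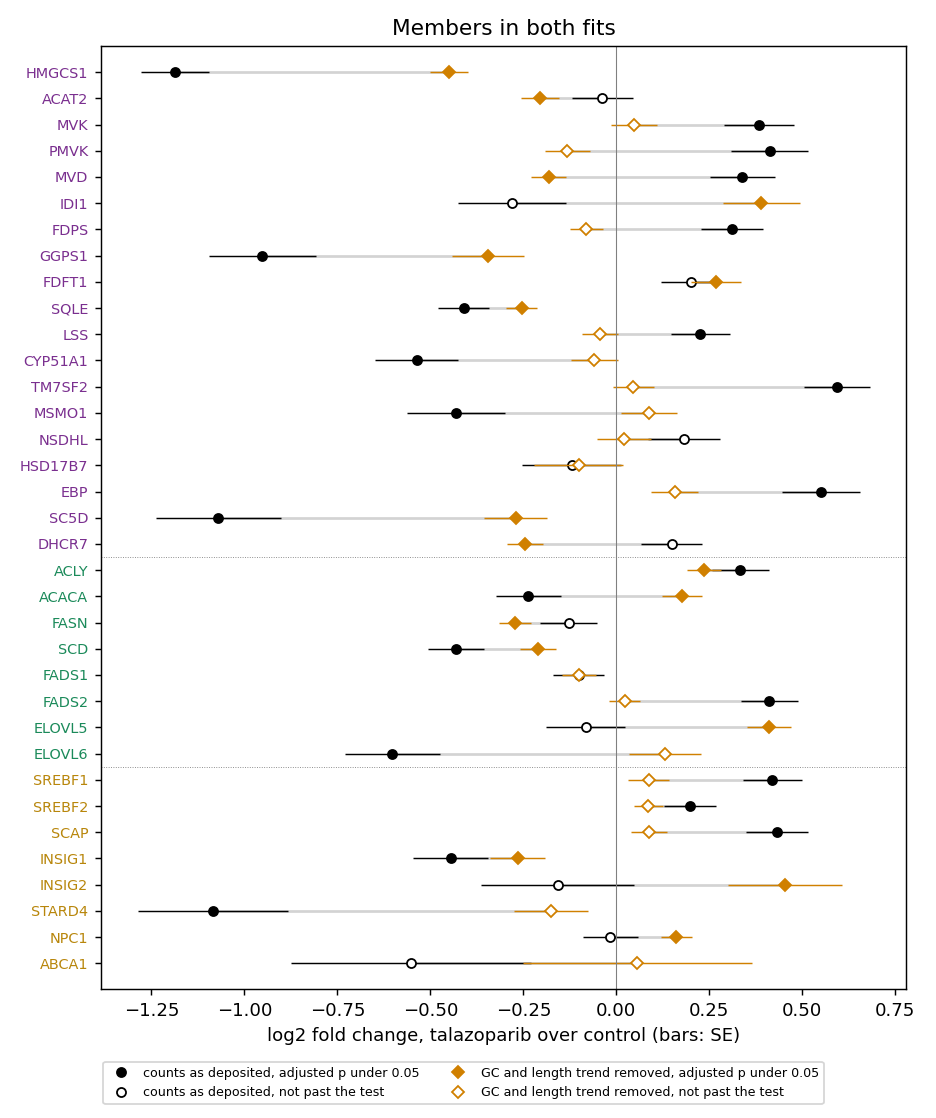
The horizontal axis is the log2 fold change of talazoparib over control with its SE, for counts as deposited (circles) and with the GC and length trend removed (diamonds), and filled symbols are past the adjusted p of 0.05. HMGCS1, GGPS1, SQLE, SC5D, SCD and INSIG1 are filled on the negative side in both, ACLY on the positive side in both, and MVD and ACACA are filled on opposite sides.

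Of the 8 regulators and transporters, 3 rose (SCAP and both SREBP genes), 2 fell (INSIG1 and STARD4) and 3 did not pass (INSIG2, NPC1 and ABCA1), with a median log2 fold change of -0.09, and trend-removed 2 were higher and 1 lower. SCAP, the escort protein, was at 184, 195 and 179 CPM with talazoparib, against 153, 130 and 131 CPM in control (0.43 ± 0.08, SE; adjusted p = 0.000849; trend-removed 0.09, adjusted p = 0.170). SREBF1 was at 80.9, 82.4 and 77.5 CPM with talazoparib, against 62.1, 61.4 and 56.5 CPM in control (0.42 ± 0.08, SE; adjusted p = 0.000723; trend-removed 0.09, adjusted p = 0.218). SREBF2 was at 479, 494 and 448 CPM with talazoparib, against 421, 412 and 405 CPM in control (0.20 ± 0.07, SE; adjusted p = 0.0300; trend-removed 0.09, adjusted p = 0.0979). The SREBF2 call was also lost when any of talazoparib replicates 1 and 2 or control replicates 2 and 3 was left out (0.15 to 0.19). In all 3 genes the groups did not overlap as deposited, and none passed trend-removed. With the length trend alone removed, all 3 were called higher (0.59 for SCAP, 0.63 for SREBF1 and 0.59 for SREBF2). SREBF1 shares 556 exon bases with RAI1 on the other strand.

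The INSIG genes encode paralogous anchors of SCAP in the endoplasmic reticulum. As deposited, only INSIG1 passed the test, and whether the change of INSIG1 differs from that of INSIG2 was not tested. INSIG1, itself a target of SREBP, was at 45.6, 42.5 and 53.5 CPM with talazoparib, against 59.9, 69.4 and 63.5 CPM in control (-0.45 ± 0.10, SE; adjusted p = 0.00242; trend-removed -0.27 ± 0.07, adjusted p = 0.0133). INSIG2, which is less dependent on sterols, was at 7.21, 8.08 and 11.8 CPM with talazoparib, against 7.67, 11.0 and 11.5 CPM in control (-0.16 ± 0.21, SE; adjusted p = 0.537). INSIG1 was thus lower in every talazoparib library, and the INSIG2 libraries overlapped. Trend-removed, INSIG2 was called higher (0.45 ± 0.15; adjusted p = 0.0317), although its groups overlapped there as well.

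STARD4, a soluble carrier that moves cholesterol between membranes, was at 8.04, 6.09 and 11.6 CPM with talazoparib, against 16.0, 20.4 and 18.2 CPM in control (-1.09 ± 0.20, SE; adjusted p = 0.000895). It has the lowest GC content of the 35 genes, 34.2%, and a deposited length of 10140 nt, and trend-removed it did not pass (-0.18; adjusted p = 0.172). NPC1, which exports cholesterol from lysosomes, had a log2 fold change of -0.02 and was higher trend-removed (0.16; adjusted p = 0.00859). ABCA1, the efflux pump for cholesterol, was nearly silent, with 320 counts over the 6 libraries, and its log2 fold change of -0.55 ± 0.32 did not pass (SE; adjusted p = 0.162).

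The members called higher and those called lower differed in the GC content of their transcripts, and the cause was not tested. The 12 members called higher had 52.2% to 65.6% GC with a median of 59.5%, and the 11 called lower had 34.2% to 48.7% with a median of 41.2%, so the ranges did not overlap. The 12 not called ran from 36.9% to 65.3%, across both ranges. No such ranges over all genes called are given beside these. Across the 35 genes the log2 fold change correlated with GC content (Pearson's r = 0.81, Spearman's rho = 0.85) and, inversely, with log2 deposited length (r = -0.51, rho = -0.46). These genes share the same 6 libraries. Over 13717 genes tested the same values were 0.63 and 0.69 for GC content and -0.44 and -0.45 for length. Trend-removed, r with GC content was -0.07 over the members. That fit subtracts each library's trend over GC content, so a weak correlation is in large part set by the subtraction.

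The talazoparib libraries also differed among themselves in the order of that trend. Of the 11 members called lower, 9 were lowest in talazoparib replicate 2 and 8 were highest in talazoparib replicate 3, the libraries with the strongest and the weakest shift of GC-poor genes. Trend-removed, replicate 2 was lowest in 3 of the 11 and replicate 3 highest in 5. The median coefficient of variation over the 35 genes was 9.23% among talazoparib libraries and 7.35% among control libraries, and 5.82% and 4.02% trend-removed. Each library's own trend was subtracted, so these trend-removed ranks and spreads are in large part set by the subtraction. No share over all genes called lower is given beside the ranks.

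**Figure D3:**
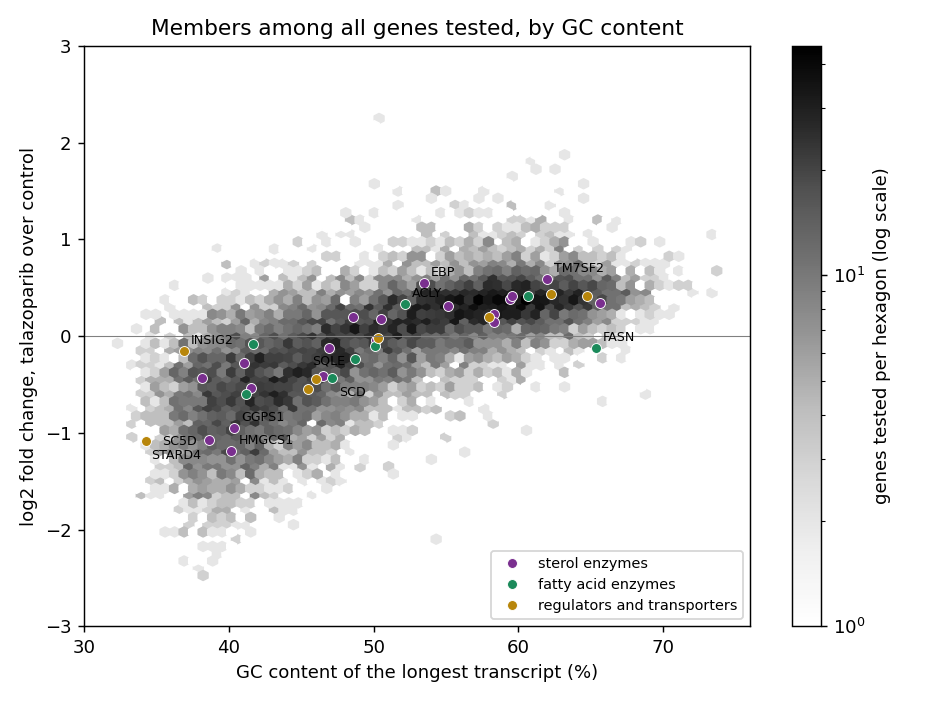
The grey hexagons count all genes tested with a GC content (log scale), by GC content in percent and log2 fold change of talazoparib over control. GC content is that of the longest transcript, among protein-coding transcripts where a gene has them. Genes beyond the axis limits are not drawn. The 35 members, coloured by role, run from STARD4 at 34.2% GC and -1.09 to TM7SF2 at 62.0% GC and 0.59, with FASN at 65.3% GC and -0.13 below it.

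Levels per length could be compared between genes on the deposited FPKM scale, which is set by total counts. SCD had the highest level in control, 337 ± 16.6 FPKM (SD, n = 3), and with talazoparib, at 237 ± 9.56 FPKM, it was below FDPS, at 252 ± 14.3 FPKM, though those 2 differed by little more than their SD. Next with talazoparib came FADS2 (182 ± 7.69 FPKM), ACLY (173 ± 6.60 FPKM) and DHCR7 (154 ± 11.2 FPKM), followed by EBP (146 ± 13.5 FPKM) and FDFT1 (142 ± 6.85 FPKM), whose intervals of 1 SD overlap those of DHCR7. HMGCS1 stood at 11.2 ± 1.32 FPKM with talazoparib, against 26.8 ± 2.87 FPKM in control, and ranked 28 of the 35 with talazoparib, against 21 in control. The lowest levels with talazoparib were those of SC5D (2.74 ± 0.792 FPKM), ELOVL6 (2.55 ± 0.221 FPKM), INSIG2 (2.40 ± 0.702 FPKM), GGPS1 (1.60 ± 0.276 FPKM), STARD4 (0.828 ± 0.289 FPKM) and ABCA1 (0.102 ± 0.0295 FPKM). The deposited lengths behind these levels are those of the authors, and for some genes they differ from the exon bases in GENCODE 29, as for STARD4 with 10140 nt against 5684 exon bases.

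**Figure D4:**
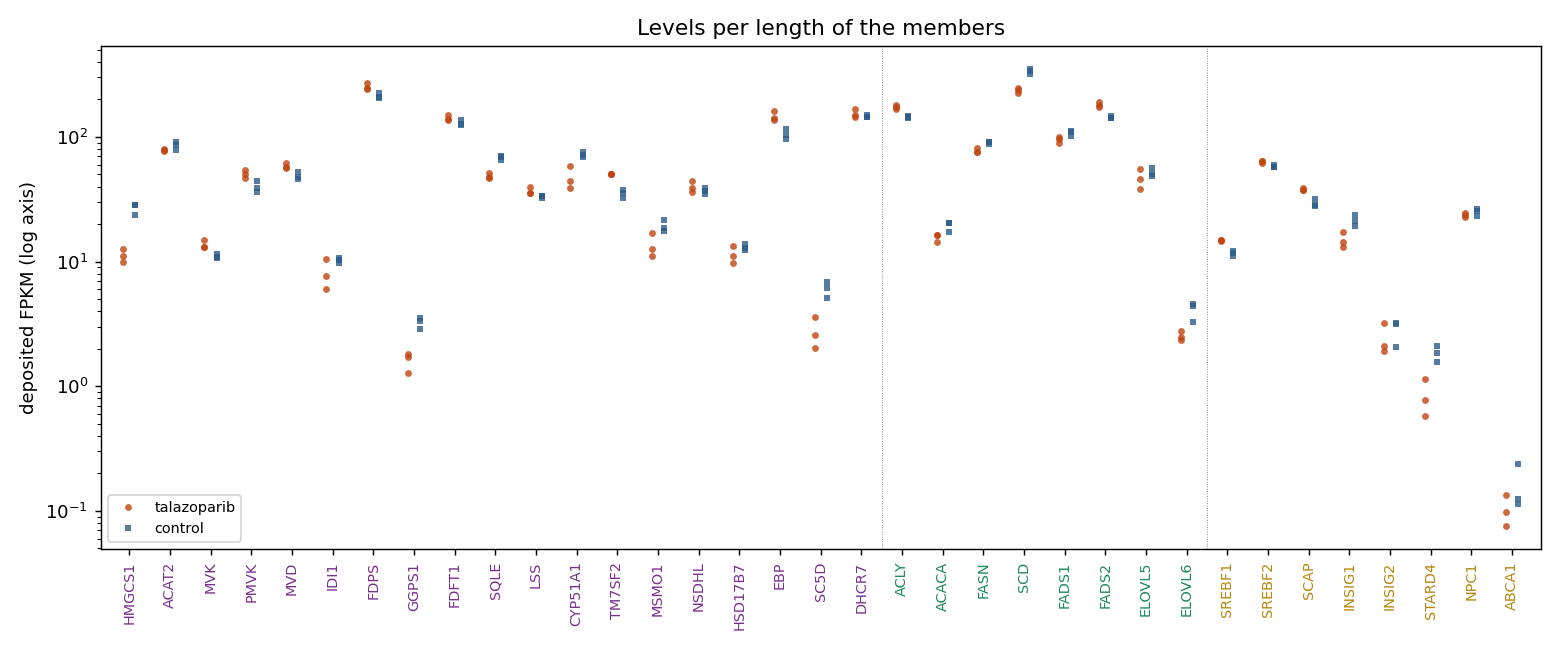
Deposited FPKM of the 35 genes in each library on a log axis, talazoparib as circles and control as squares, with gene names coloured by role as sterol enzymes, fatty acid enzymes, and regulators and transporters. Levels span from ABCA1 near 0.102 FPKM with talazoparib to SCD at 337 FPKM in control.

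Summed over the role, the 19 sterol enzymes came to 1125, 1219 and 1156 FPKM with talazoparib, against 1146, 1079 and 1085 FPKM in control, so the groups overlapped. The 8 fatty acid enzymes came to 838, 836 and 816 FPKM with talazoparib, against 876, 921 and 897 FPKM in control. These sums did not overlap, and SCD was the largest single contributor in both groups. The sum averaged 830 FPKM with talazoparib and 898 FPKM in control. SCD alone was at 237 and 337 FPKM, a larger step than that of the whole sum. The lower sum therefore does not stand for the other fatty acid enzymes, and no trend-removed sum is given here. Ratios within a library were taken for 4 pairs of related genes. The ratio of FADS2 to FADS1, neighbours on chromosome 11 whose exons share 490 bases on opposite strands, was 1.88, 2.13 and 1.74 with talazoparib, against 1.45, 1.28 and 1.30 in control. The ratio of SREBF1 to SREBF2 was 0.234, 0.231 and 0.239 with talazoparib, against 0.204, 0.206 and 0.193 in control. Trend-removed, both ratios overlapped between the groups, at 1.54 to 1.81 with talazoparib and 1.51 to 1.56 in control for FADS2 to FADS1. The ratio of INSIG1 to INSIG2 overlapped as deposited, at 5.43 to 7.55 with talazoparib and 6.58 to 9.34 in control, and did not overlap trend-removed, at 4.51 to 6.54 with talazoparib and 7.58 to 10.3 in control. ELOVL5 to ELOVL6 ran from 16.1 to 22.4 with talazoparib and from 11.1 to 14.9 in control, and overlapped trend-removed.

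Promoters were searched because SREBP binds short sterol response elements, often beside CCAAT boxes bound by NF-Y, a known partner of SREBP. RefSeq windows of 300 bases (250 before to 50 after the start, GRCh38.p14) were at hand for 31 of the 35 genes and were read on both strands. The letters TCACNCCAC were found in 1 of 31, against 1.13% of 35116 windows in all. The match lies in SREBF2, beginning 133 bases before the start. CCAAT was found in 18 of 31, against 34.6% of all windows and 36.3% of 11447 windows of genes tested. By role it was in 12 of 16 sterol enzymes, 3 of 7 fatty acid enzymes and 3 of 8 regulators and transporters. It was in 8 of the 12 genes called higher and in 6 of the 11 called lower, counting genes with no window as without it. A match is a description of letters, not a site. The following windows are shown because they hold the TCACNCCAC match of SREBF2 and the CCAAT letters of a gene that rose, MVK, and of HMGCS1 and MSMO1, which fell. Capitals mark TCACNCCAC and CCAAT, which reads ATTGG on the other strand.
SREBF2, chr22:41832855-41833154, plus strand: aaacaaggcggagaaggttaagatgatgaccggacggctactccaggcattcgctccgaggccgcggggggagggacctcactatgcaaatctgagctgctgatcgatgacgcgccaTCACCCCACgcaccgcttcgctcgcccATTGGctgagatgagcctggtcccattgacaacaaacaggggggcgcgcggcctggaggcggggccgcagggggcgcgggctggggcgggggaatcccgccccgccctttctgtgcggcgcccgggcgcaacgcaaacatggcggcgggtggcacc
MVK, chr12:109573544-109573843, plus strand: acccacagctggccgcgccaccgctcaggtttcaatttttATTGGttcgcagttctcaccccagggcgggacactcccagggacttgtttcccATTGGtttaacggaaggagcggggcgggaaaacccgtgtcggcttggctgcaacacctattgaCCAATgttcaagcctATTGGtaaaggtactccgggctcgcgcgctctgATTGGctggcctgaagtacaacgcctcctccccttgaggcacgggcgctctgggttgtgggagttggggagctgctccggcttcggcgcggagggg
HMGCS1, chr5:43313363-43313662, minus strand: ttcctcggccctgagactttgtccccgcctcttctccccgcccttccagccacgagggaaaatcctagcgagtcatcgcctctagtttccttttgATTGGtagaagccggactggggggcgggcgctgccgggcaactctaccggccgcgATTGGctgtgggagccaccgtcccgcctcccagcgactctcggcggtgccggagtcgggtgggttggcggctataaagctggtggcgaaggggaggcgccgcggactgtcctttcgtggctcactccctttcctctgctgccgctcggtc
MSMO1, chr4:165327419-165327718, plus strand: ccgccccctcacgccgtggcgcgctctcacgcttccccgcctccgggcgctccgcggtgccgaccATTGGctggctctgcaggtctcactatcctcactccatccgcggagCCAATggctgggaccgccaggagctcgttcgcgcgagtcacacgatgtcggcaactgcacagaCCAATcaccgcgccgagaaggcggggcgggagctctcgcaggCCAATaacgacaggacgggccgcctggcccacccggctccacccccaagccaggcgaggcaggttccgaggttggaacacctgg

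MVK holds 5 CCAAT matches and MSMO1 holds 4, and these genes were called in opposite directions before trend removal. Trend-removed, neither passed the test (0.05 for MVK and 0.09 for MSMO1). These genes are examples, and whether CCAAT goes with direction was not tested. HMGCS1 holds 2, and GGPS1 and CYP51A1, which also fell, hold none in these windows.

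Other genes of the same biology were counted from lists set by role, and at most 4 genes of a list, those of smallest adjusted p, are given with values. Over all genes tested 26.8% were called higher and 29.9% lower, and trend-removed 22.0% and 22.2%. The median GC content of the lists, in the order below, was 45.6%, 55.4%, 44.9% and 48.3%, against 49.4% over all genes tested. In sterol sensing and SREBP processing, 2 of 10 rose and 5 fell (median -0.22). MBTPS1, the first protease that cuts SREBP, rose by 0.30 (trend-removed 0.31), and MBTPS2, the second, fell by 0.87 (trend-removed -0.20, not past the test). The sterol-regulated TMEM97 fell by 0.29 (trend-removed -0.12, not past the test). With the trend removed 4 of the 10 were higher and 0 lower.

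Among genes of sterol uptake, transport, storage and efflux, 9 of 17 tested rose and 3 fell (median 0.25), and trend-removed 6 were higher and 0 lower. The lipoprotein receptor SCARB1 was at 324 ± 21.9 CPM with talazoparib, against 226 ± 13.2 CPM in control (0.52; trend-removed 0.25), and the sterol hydroxylase CYP27A1 at 8.03 ± 0.674 CPM, against 3.91 ± 0.487 CPM (1.04; trend-removed 0.58). SOAT1, which esterifies cholesterol for storage, fell by 0.68 and the oxysterol receptor NR1H2 rose by 0.59, and neither passed trend-removed (0.11 and 0.11). SOAT2 and CH25H did not pass the filter on low counts.

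In the branches of the mevalonate pathway to dolichol, ubiquinone and prenylated proteins, 3 of 13 rose and 4 fell (median -0.11). RABGGTB, the catalytic subunit that prenylates RAB proteins, was at 9.11 ± 1.76 CPM with talazoparib, against 25.4 ± 3.79 CPM in control, a log2 fold change of -1.48 that was still -1.04 trend-removed. PDSS1, which starts the ubiquinone side chain, fell by 0.74 (trend-removed -0.42). PGGT1B and ZMPSTE24, which act in protein prenylation and its processing, fell by 0.97 and 0.73 and did not pass trend-removed (0.02 and -0.18). Trend-removed, 3 were higher and 3 lower.

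Of the other genes of fatty acid and glycerolipid synthesis, 7 of 26 tested rose and 8 fell (median 0.00), and trend-removed 8 were higher and 6 lower. The elongation dehydratase HACD2 was at 28.2 ± 3.51 CPM with talazoparib, against 60.1 ± 6.82 CPM in control (-1.09; trend-removed -0.32). The acyltransferase AGPAT2 and the elongation reductase TECR rose by 0.60 and 0.57, and the acyltransferase GPAM fell by 0.83; none of these 3 passed trend-removed (0.02, 0.05 and -0.06). THRSP and ACSL5 did not pass the filter on low counts.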

How the data were processed

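RNA-seq of 6 DU 145 libraries was used. The authors deposited whole-number read counts per gene symbol and FPKM values, and HTSeq, Cufflinks, HISAT2 and Trimmomatic are named, with GRCh38, per the submitters' processing notes. Neither versions nor the annotation nor the strand setting is stated there. The deposited counts and FPKM of the same gene gave a length that was whole to within 0.01 nt for 99.95% of the 21065 genes counted at least once, so FPKM is scaled by length and total count.

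Genes passing edgeR's filterByExpr (minimum count 10) entered edgeR 4.0.16 (R 4.3.3): TMM scaling, robust quasi-likelihood test, talazoparib against control, Benjamini-Hochberg adjustment over all 14452 genes, called below 0.05. CPM is edgeR's scaled count after TMM. The SE was derived from the log2 fold change and its F statistic. The procedure was also run on simulated data, with the dispersion held fixed. Where a trend was put in, it came from the same spline that is subtracted here. Those runs therefore cannot show how well the fit suits these data. The trend-removed fit subtracted, per library, a spline (5 degrees of freedom each, prior count 2) over GC content and log2 deposited length. It covered the 94.9% of genes with both. GC content is that of the longest GENCODE 29 transcript, among protein-coding transcripts where a gene has them. The deposited length need not be that of the same transcript. Other alternatives were RLE or total count scaling, DESeq2 1.42.0, no filter, limma 3.58.1 on log2(FPKM + 1) or log2(FPKM + 0.1) with a minimum of 0.5 FPKM, a replicate block and leaving out each library. Values in every library are given for the genes past the test with the 4 largest rises and falls among sterol enzymes, the 2 largest of each in the other roles, and the SREBP and INSIG genes; SQLE and IDI1 were added after their values were seen. The members and lists were chosen with earlier results of these data known. Some genes of the lists are not reported here by name.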

Additional observations from a re-analysis of the deposited data

How the results depend on the processing

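RLE scaling, DESeq2 and the analysis with no filter on low counts left the calls of 34 of the 35 genes where they were. Under total count scaling and with limma on log2(FPKM + 1) or log2(FPKM + 0.1), 5 fatty acid enzymes were lower, with medians of -0.19 in all 3; ABCA1 fell below the FPKM minimum. With the GC and length trend removed, 7 members were higher and 10 lower. By role, 2 sterol enzymes were higher and 7 lower, and 3 fatty acid enzymes were higher and 2 lower. Of the regulators and transporters, 2 were higher and 1 lower. The median was -0.081 for sterol and 0.076 for fatty acid enzymes. The sign turned for PMVK (-0.13), MVD (-0.18), IDI1 (0.39), FDPS (-0.081), LSS (-0.045), MSMO1 (0.088), DHCR7 (-0.25), ACACA (0.18), ELOVL5 (0.41), ELOVL6 (0.13), INSIG2 (0.45), NPC1 (0.16) and ABCA1 (0.056); the cause was not tested. With the length trend alone removed, 4 fatty acid enzymes were higher and 1 lower, the medians were 0.028 for sterol and 0.19 for fatty acid enzymes, and ACACA (0.38), FASN (0.35), NPC1 (0.39), IDI1 (0.023), FADS1 (0.028) and ABCA1 (0.020) turned. Same-numbered libraries did not deviate together (r = -0.09, -0.17 and 0.00), and libraries of unlike number gave r of -0.11 to 0.19. Deviations from the means of 3 libraries, which also carry each library's GC trend, cannot decide whether the numbers pair them. A replicate block gave 7580 genes over the whole table, 10 members higher and 10 lower, without the calls of LSS, ACACA and SREBF2. The block with the GC and length trend removed gave 5140 genes, 7 members higher, 1 regulator or transporter lower and 2 sterol enzymes higher. Other counts of that fit, such as all members lower and sterol enzymes lower, are not given here. Its medians were -0.081 for sterol and 0.075 for fatty acid enzymes. In it the sign turned for PMVK (-0.13), MVD (-0.18), IDI1 (0.38), FDPS (-0.081), LSS (-0.0455), MSMO1 (0.091), DHCR7 (-0.25), ACACA (0.17), ELOVL5 (0.41), ELOVL6 (0.13), INSIG2 (0.45), NPC1 (0.16) and ABCA1 (0.088). Leaving out each library gave 6353 to 8549 genes, 9 to 14 members higher and 9 to 12 lower, and medians of 0.07 to 0.21 for sterol and -0.16 to -0.11 for fatty acid enzymes; the sign turned for ELOVL5 without talazoparib replicate 2 (0.030) and for NPC1 without talazoparib replicate 3 (0.030). ABCA1 had the fewest counts of the members, 320 in all.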

Other observations

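INSIG1-DT, an RNA divergent from INSIG1 that was chosen after its values were seen, was at 5.44, 4.73 and 4.99 CPM with talazoparib, against 4.04, 3.50 and 3.59 CPM in control (log2 fold change 0.45 ± 0.16, SE, n = 3 each; edgeR adjusted p = 0.0316). It was higher in all 3 talazoparib libraries while INSIG1 was lower in all 3. The call was lost without talazoparib replicate 1, control replicate 2 or control replicate 3 (0.37 to 0.49 over all 6 libraries left out in turn), and with the GC and length trend removed the value was 0.02 (adjusted p = 0.925). SOD2, the mitochondrial superoxide dismutase whose exons overlap ACAT2, was at 65.8, 58.0 and 86.0 CPM with talazoparib, against 85.4, 90.3 and 87.8 CPM in control (-0.33; adjusted p = 0.0385). That call was lost when any library other than talazoparib replicate 3 was left out (-0.50 to -0.21 over all 6 left out in turn), and trend-removed it was higher (0.65; adjusted p = 0.00244).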
